A study of Mus musculus with 8 samples.

Results

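The miR-181 family of the mouse comprises mmu-miR-181a, mmu-miR-181b, mmu-miR-181c and mmu-miR-181d (written here without the species prefix), and its members were taken as the rows of the array that carry these names, 4 of the 1040 mouse miRNAs probed. They were followed in 3 thymic populations profiled on 1-color arrays: medullary thymic epithelial cells (mTECs, 3 arrays), cortical thymic epithelial cells (cTECs, 2 arrays) and CD45+ cells (3 arrays). All 8 samples came from female NOD wildtype mice aged 4 weeks, without treatment or a targeted allele, and the samples of a group are labelled as biological replicates. Stromal cells were prepared from pools of 10 to 12 mice. Cells were purified by flow cytometry: cTECs were CD45-, EpCAM+, MHC II+ and Ly51+, mTECs had the same gate but were Ly51-, and the CD45+ reference was EpCAM- and holds mainly thymocytes. The comparison asks how the family is distributed between the developing T cells of the thymus and the epithelium that surrounds them.

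MicroRNAs repress messenger RNAs that pair with their seed, the short stretch near the 5′ end of the mature strand, so family members that share a seed can share targets. The miR-181 family is known in the thymus for its abundance in immature CD4+ CD8+ thymocytes, where miR-181a represses several phosphatases that dampen T cell receptor signaling and thereby raises the sensitivity of thymocytes to antigen during selection. TECs present the self-antigens on which that selection acts, cTECs mainly in positive and mTECs in negative selection.

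The mature sequences from RefSeq (GRCm38.p6) are shown because they define the family. Capitals mark the seed, bases 2 to 8.
miR-181a: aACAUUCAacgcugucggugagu
miR-181b: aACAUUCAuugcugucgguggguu
miR-181c: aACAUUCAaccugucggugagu
miR-181d: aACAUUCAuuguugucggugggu
All 4 members carry the seed ACAUUCA, and none of the other names among the 1679 mature miRNA names in the RefSeq table carries it. Outside the seed the family forms close pairs. The mature sequences of miR-181a and miR-181c are 1 base apart, counting substitutions, insertions and deletions, whereas miR-181b and miR-181d are 2 bases apart and the remaining pairs 4 or 5.

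This likeness bears on what the arrays can separate, so the probes are shown as well, with the part complementary to the miRNA in capitals.
miR-181a probe: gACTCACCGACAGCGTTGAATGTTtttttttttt
miR-181c probe: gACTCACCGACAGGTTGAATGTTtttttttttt
miR-181b probe: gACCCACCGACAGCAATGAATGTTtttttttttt
miR-181d probe: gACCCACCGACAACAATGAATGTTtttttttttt
The targets of the miR-181a and miR-181c probes differ by 1 base, and so do those of the miR-181b and miR-181d probes. The other pairs of members differ by 3 to 5 bases, and the nearest probe outside the family is 7 or 8 bases away. How much of the signal of the miR-181c and miR-181d probes is hybridization of miR-181a and miR-181b cannot be told apart in these data.

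The members are cut from several hairpins. RefSeq places Mir181a-1 on chromosome 1 at 137966455 to 137966541 and Mir181b-1 at 137966639 to 137966718, both on the plus strand, with 97 bases between them and no other RefSeq gene overlapping. A second copy of the pair lies on chromosome 2, where Mir181a-2 spans 38852735 to 38852810 and Mir181b-2 spans 38853830 to 38853918 on the plus strand, 1019 bases apart. Both of these hairpins overlap Nr6a1 and its antisense gene Nr6a1os. Mir181d lies on the minus strand of chromosome 8 at 84178716 to 84178787. The hairpin of miR-181c, Mir181c, was not analysed here. The hairpin of Mir181a-1 is shown with its arms in capitals, since it yields both a member and the passenger strand described later.
Mir181a-1: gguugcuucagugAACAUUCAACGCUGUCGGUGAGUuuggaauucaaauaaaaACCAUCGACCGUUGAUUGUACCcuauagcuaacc
Because the copies on chromosomes 1 and 2 yield the same mature miR-181a, and likewise the same miR-181b, the array cannot assign their signals to one of the loci.

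Signal over background set what could be measured. Between 98 and 122 mouse probes were well above background on the cTEC arrays, 169 to 229 on the CD45+ arrays and 236 to 325 on the mTEC arrays, and no probe was saturated. Values are processed fluorescence intensities divided by each array's 75th percentile of the 65 mouse probes that every array measured well above background and put back on a common scale, called scaled signal here. An array's limit, the lowest scaled signal that still counted as well above background, was 342 and 621 on the 2 cTEC arrays and 67.0 to 223 on the others. Testing used log2 scaled signal with each spot floored at 621 before the 5 spots of a probe were averaged, so that a member whose spots all lie below it on every array of a group enters at 9.28, and its fitted change is compressed. The summed scaled signal of 7 epithelial markers was 623 to 704 in CD45+ cells, 36799 to 39058 in mTECs, and 8620 and 4442 in cTECs, where 5 and 3 of the 7 were well above background. The epithelial marker signal was therefore weaker in the cTECs than in the mTECs, while both labels come from the sorting gate.

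miR-181a was the only member well above background on all 8 arrays. Its scaled signal was 12428, 13724 and 13615 in CD45+ cells, 1251, 875 and 1033 in mTECs, and 3615 and 961 in cTECs. The groups of CD45+ cells and TECs did not overlap, and the replicates of CD45+ cells and of mTECs lay close together while the cTEC replicates did not. The means were 13255 ± 719 (SD, n = 3) in CD45+ cells, 1053 ± 189 (SD, n = 3) in mTECs and 2288 ± 1876 (SD, n = 2) in cTECs. In mTECs miR-181a was 12.7-fold lower than in CD45+ cells, a log2 fold change of -3.67 (SE 0.48, 95% interval -4.84 to -2.49; limma adjusted p = 0.00171). The size moved with the processing, from -2.40 in the deposited normalized table to -4.51 with scaling to the percentile over all mouse probes, and miR-181a was called in both (limma adjusted p = 0.000766 and 0.0134). In cTECs it was 7.17-fold lower, at -2.84 (SE 0.53, 95% interval -4.16 to -1.53; limma adjusted p = 0.00741). This size moved as well, to -2.12 in the deposited normalized table and -4.67 with scaling to the percentile over all mouse probes. Without scaling it was -5.13, and miR-181a was called in all of these (limma adjusted p = 0.00164, 0.0128 and 0.0064). The size of the cTEC difference depended on the replicate: without cTEC replicate 2 it was -1.88 (limma adjusted p = 0.00237) and without cTEC replicate 1 it was -3.81 (limma adjusted p = 9.96e-05). Among the 71 miRNAs that were well above background, with at least 1 spot above the floor, on every array of both groups, miR-181a had the lowest log2 fold change, followed by miR-15b at -2.36 and miR-20b at -2.28. Among the 45 such miRNAs in the cTEC comparison it ranked 3rd from the lowest, after miR-21 and miR-20a. The floor limits how far miRNAs dimmer than miR-181a in CD45+ cells can fall in these rankings. Left out in mTECs were miR-150 and miR-142-3p, although well above background on every mTEC and CD45+ array. Of its CD45+ mean, miR-150 kept 9.67%, 8.39% and 8.45% in mTECs and miR-142-3p 13.3%, 10.7% and 7.28%. For miR-181a these shares were 9.44%, 6.60% and 7.79%. These bulk samples do not separate fewer cells that hold the miRNA from less of it per cell.

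**Figure D1:**
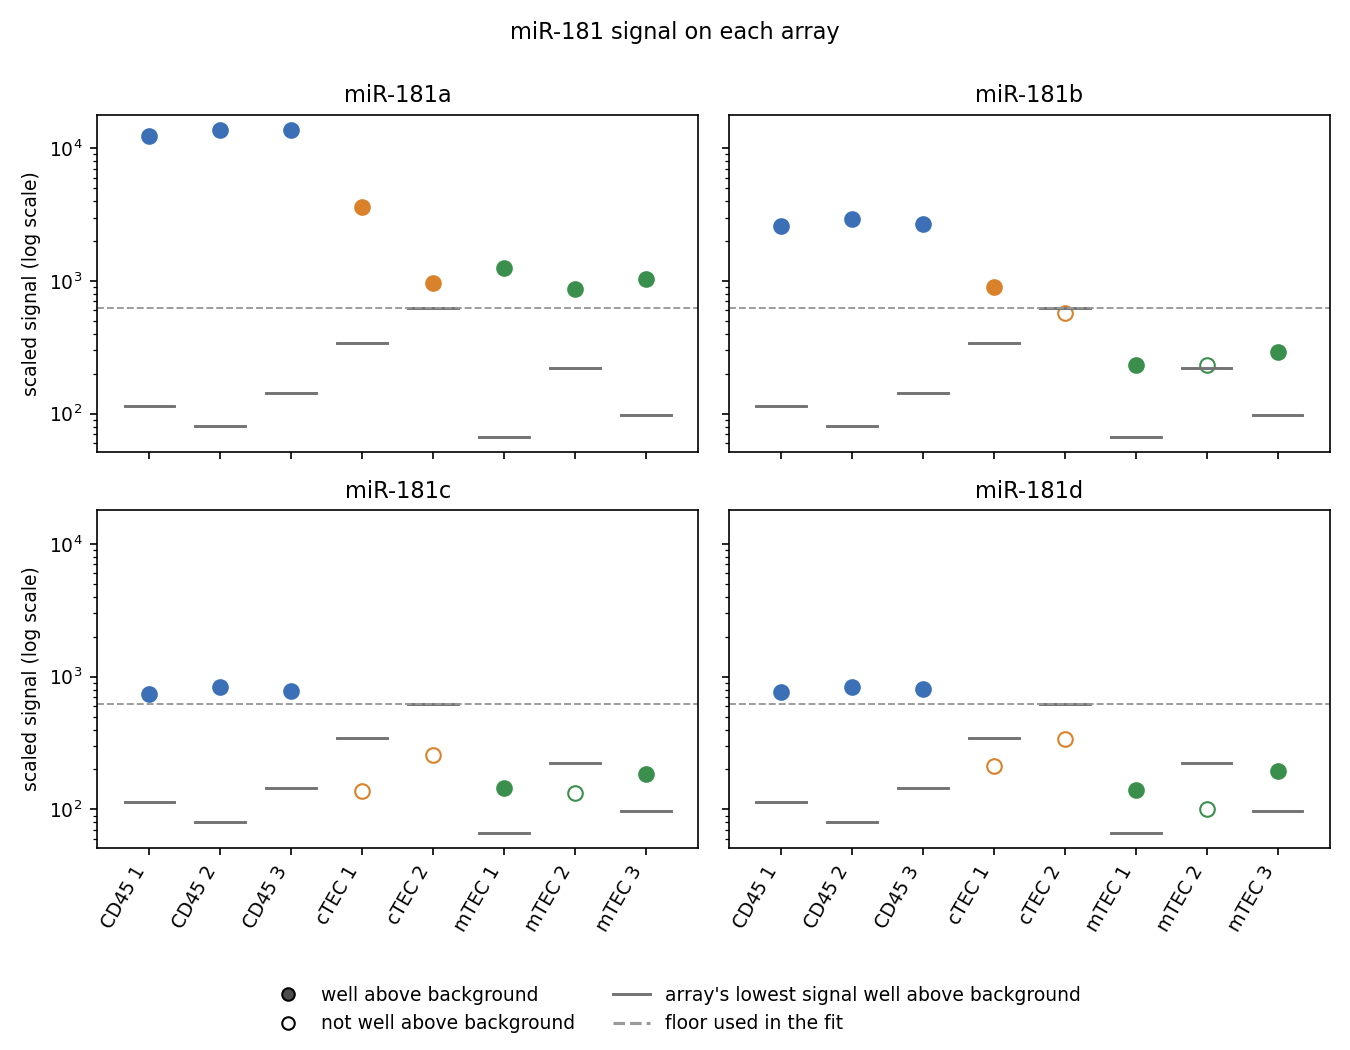
Scaled signal of the 4 members on each array, on a log axis, by population; filled points were well above background, open points were not, grey bars give the limit of each array and the dashed line the floor of 621. All CD45+ points lie above all TEC points for every member, and the cTEC values of miR-181c and miR-181d, from 139 to 337, are open.

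miR-181b, which is made from the same pairs of hairpins as miR-181a, was well above background on 6 of 8 arrays. Its scaled signal was 2575, 2903 and 2701 in CD45+ cells, 233, 233 and 292 in mTECs, and 895 and 569 in cTECs, where the second mTEC value and the second cTEC value were not well above background. Every TEC array was below every CD45+ array, and the 1 cTEC value well above background was higher than those of the mTECs. Against a CD45+ mean of 2726 ± 165 (SD, n = 3), miR-181b was at least 10.8-fold lower in mTECs, measured on 2 of 3 arrays, and at least 3.65-fold lower in cTECs, measured on 1 of 2. These bounds set the CD45+ mean of log2 values against, on each TEC array, the higher of the probe's signal and the array's limit. On the second cTEC array the mean was below the floor but at least 1 spot was above it, so that miR-181b entered the fit at 9.35 there. The fitted log2 fold changes, held by the floor, were -2.13 in mTECs (SE 0.12; limma adjusted p = 3.32e-05) and -1.84 in cTECs (SE 0.13; limma adjusted p = 0.000107). Every mTEC array entered at the floor, so the mTECs add no spread to these SEs. The sizes moved with the processing, and the bounds hold for the scaled signal only. In the deposited normalized table miR-181b was at -0.91 in mTECs and -0.72 in cTECs, smaller than the bounds. Without scaling it was at -3.90 and -3.95, and with normexp background correction at -2.35 and -1.51.

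miR-181c and miR-181d were the dimmer probes and behaved alike. The scaled signal of miR-181c was 737, 842 and 784 in CD45+ cells, 144, 133 and 185 in mTECs, and 139 and 255 in cTECs. That of miR-181d was 762, 838 and 804 in CD45+ cells, 140, 99.95 and 195 in mTECs, and 214 and 337 in cTECs. For both, all CD45+ arrays lay above all TEC arrays, the second mTEC array was not well above background, and neither cTEC array was. miR-181c was at least 4.34-fold lower in mTECs and at least 1.71-fold lower in cTECs than in CD45+ cells, and miR-181d at least 4.39-fold and at least 1.74-fold lower. The cTEC bounds are low because those 2 arrays had the highest limits, and a larger difference was not detectable there. These bounds too hold for the scaled signal only. In the deposited normalized table miR-181c was at -0.41 in mTECs and -0.46 in cTECs, and miR-181d at -0.41 and -0.43 (log2), smaller than the bounds. In the fit both TEC groups sat at the floor, so that the log2 fold change of miR-181c was -0.34 in mTECs (limma adjusted p = 0.00239) and in cTECs (limma adjusted p = 0.00343), and that of miR-181d was -0.36 (limma adjusted p = 0.000576 and 0.000764). TEC arrays at the floor add no spread to the fit. These p-values therefore do not measure variation among TEC replicates. With a floor of 67.0, the lowest limit among the arrays, the mTEC values became -3.45 for miR-181b, -2.38 for miR-181c and -2.51 for miR-181d.

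In all, 4 of 4 members were called lower in mTECs than in CD45+ cells at a limma adjusted p under 0.05, where 14.9% of the 309 tested miRNAs were called lower. In cTECs 4 of 4 were called lower, where 20.1% of the tested miRNAs were. For miR-181c and miR-181d in both subsets, and for miR-181b in mTECs, the TEC group sat at the floor and added no spread to the fit. The median log2 fold change of the members was -1.25 in mTECs and -1.10 in cTECs, and that of all tested miRNAs was 0 in both. Both medians depend on the floor, and with the floor at 67.0 that of all tested miRNAs was 0.45 in mTECs and 0.86 in cTECs. At that floor miR-181a, miR-181b, miR-181c and miR-181d were at -3.67, -3.45, -2.38 and -2.51 in mTECs. In cTECs they were at -2.84, -1.95, -2.13 and -1.70. Each member was lower on 5 of 5 TEC arrays than on any CD45+ array, a separation seen for 19.1% of the tested miRNAs. The two-sided exact permutation test of the 5 TEC arrays against the 3 CD45+ arrays gave p = 0.0357 for each member, the smallest value that the 56 groupings allow. The difference of mean log2 signal in that test was -3.34 for miR-181a, -2.01 for miR-181b, -0.34 for miR-181c and -0.36 for miR-181d. The members are not independent of each other, since miR-181a and miR-181b are made from neighboring hairpins, the loci of miR-181c and miR-181d were not compared, and the probe targets within each close pair differ by 1 base.

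**Figure D2:**
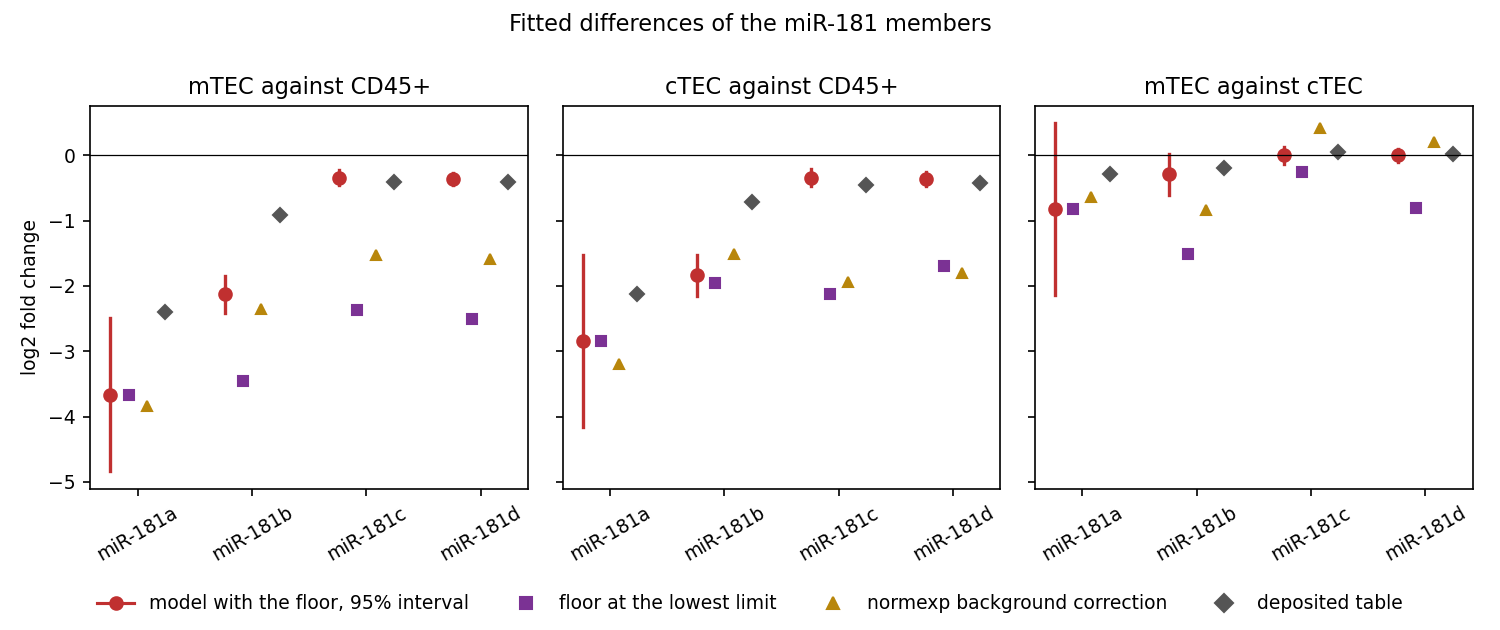
Fitted log2 fold change of each member with its 95% interval in the 3 comparisons, beside the values with the lowest floor, with normexp background correction and from the deposited normalized table. All values against CD45+ cells lie below 0, and the distance from 0 of miR-181b, miR-181c and miR-181d changes with the floor.

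Between the TEC subsets no member was called by limma at an adjusted p under 0.05 (0 of 4), where 22.7% of the tested miRNAs were called in either direction, nor did one reach an unadjusted p under 0.05, and no member except miR-181a was measured on all arrays of both subsets. miR-181a differed by -0.82 (mTEC against cTEC, log2; SE 0.53, 95% interval -2.14 to 0.49; limma adjusted p = 0.395) and miR-181b by -0.29 (95% interval -0.61 to 0.025; limma adjusted p = 0.242). The interval for miR-181a covers both an equal level and a severalfold higher one in cTECs, and the sign turned with the scaling, to 0.17 with the percentile over all mouse probes and 0.90 without scaling (limma adjusted p = 1 and 0.574). miR-181c and miR-181d were at the floor in both subsets and had no measured difference. The result for miR-181a turned on 1 library: without cTEC replicate 2 the difference was -1.79 (limma adjusted p = 0.00492), and without cTEC replicate 1 it was 0.14 (limma adjusted p = 0.826). miR-181b moved the same way, to -0.52 (limma adjusted p = 0.00666) without cTEC replicate 2 and to -0.067 (limma adjusted p = 0.617) without cTEC replicate 1. In both cases the remaining cTEC array was assumed to vary like the other groups. The value of miR-181b also turned on the floor and the scaling: it was -1.505 with the floor at 129 or at 67.0 (limma adjusted p = 0.00218 and 0.00362) and 0.041 without scaling (limma adjusted p = 1).

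The cTEC replicates also differed in other respects. Before scaling, the 75th percentile was 2910 on the first and 1364 on the second, against 4213 to 11503 on the other arrays, and they lay in different rows of the 1 slide used. Within the first slide row, miR-181a differed by -1.86 between cTECs and CD45+ cells and by -3.38 between mTECs and CD45+ cells. Within the second row both differences were close, at -3.85 and -3.84. miR-181b gave -1.62 and -2.05 in cTECs and -2.13 and -2.12 in mTECs. The first row held 1 cTEC, 1 mTEC and 2 CD45+ arrays, and the second 1, 2 and 1. On these few arrays miR-181a and miR-181b were lower in each TEC subset than in CD45+ cells within both rows. For the cTECs the row and the replicate cannot be told apart.

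Markers of blood cells were set beside the members, since CD45+ cells carry far more of the family. The summed scaled signal of 5 such miRNAs was 11435 to 14412 in CD45+ cells, 1489 and 3169 in cTECs, and 2183 to 3368 in mTECs, with 5 of the 5 well above background on each CD45+ array, 2 on each cTEC array and 3 to 5 on the mTEC arrays. In mTECs 1 of the 5, miR-155, carried most of the sum, at 2184, 1599 and 1308. The defining marker miR-142-3p, which is restricted to blood cells, was 306 and 600.0 on the cTEC arrays, not well above background on either, and 550, 441 and 300 on the mTEC arrays. The 2 blood cell markers measured on both cTEC arrays were lower on replicate 1, the array with the higher miR-181a: miR-150 was 542 and 769, and miR-155 was 345 and 820. The epithelial sum was higher on replicate 1. The endothelial miR-126-3p was also higher on that array: it was 2615 and 1013 in cTECs, 503, 285 and 416 in mTECs, and 260, 189 and 248 in CD45+ cells. In cTECs miR-143 and miR-145 were higher on replicate 1 as well. By contrast, miR-126-5p was lower there, at 140 and 514, as were miR-199a-3p, miR-199a-5p and miR-214. None of these lower markers was well above background on either cTEC array. The summed mesenchymal and endothelial markers were 7872 and 3759 in cTECs, 6817 to 7157 in mTECs and 477 to 596 in CD45+ cells. In mTECs miR-143, at 3454, 3158 and 3046, and miR-145, at 2771, 2978 and 2977, carried most of that sum. There miR-126-5p, miR-199a-3p and miR-199a-5p were not well above background on any array. Of 2 red cell markers 1 was well above background on 1 array, of mTECs. The part of other cell types in the values of the members was not tested.

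As a share of the CD45+ mean, the members and a list of 11 other miRNAs with known roles in lymphocyte development can be followed array by array. miR-181a was at 9.44%, 6.60% and 7.79% of its CD45+ mean in mTECs and at 27.3% and 7.25% in cTECs. miR-181b was at 8.56%, 8.53% and 10.7% in mTECs and at 32.8% and 20.9% in cTECs. Its shares of 8.53% and 20.9% rest on signals that were not well above background. The shares of miR-181c, 16.9% to 23.5% in mTECs, and of miR-181d, 12.5% to 24.3%, rest partly on signals that were not well above background. The median share of the 11 listed miRNAs was 28.7%, 28.3% and 27.5% on the mTEC arrays, and 11, 11 and 10 of them had a higher share than miR-181a. Fewer of the 11 were well above background on the cTEC arrays, 8 on the first and 5 on the second. On the first, the 8 measured ones all had a lower share than miR-181a, with a highest share of 22.9%, and on the second the 5 measured ones all had a higher share. The miRNAs not measured on a cTEC array have no order against miR-181a there.

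**Figure D3:**
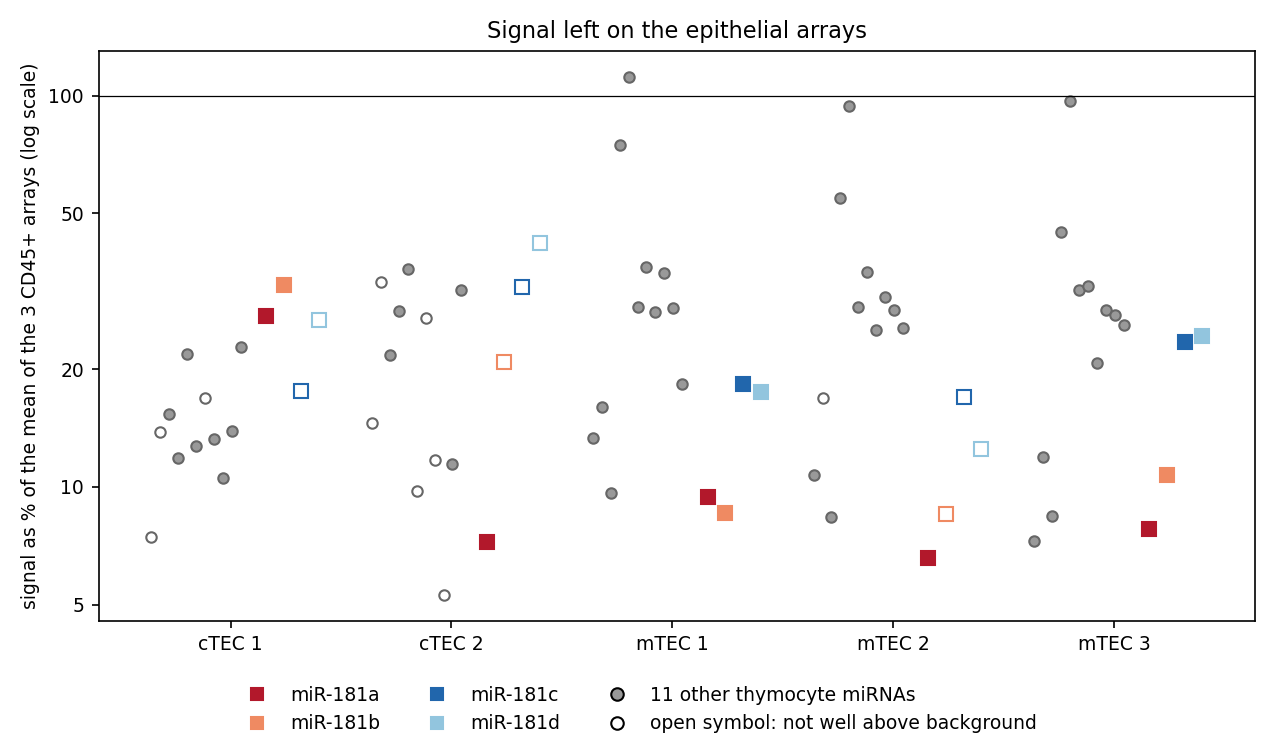
Scaled signal on each of the 5 TEC arrays as a percent of the CD45+ mean, with the members as squares and the 11 other lymphocyte miRNAs as circles, open where not well above background. On the first cTEC array the squares of miR-181a and miR-181b, at 27.3% and 32.8%, lie above all filled circles, and on the mTEC arrays they lie below nearly all of them.

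In the fits, 14.9% of the 309 tested miRNAs were called lower in mTECs than in CD45+ cells, and 20.1% in cTECs. Of the 11 listed miRNAs, 9 were called lower in mTECs and 11 in cTECs. Their median log2 fold changes were -1.74 and -2.29. They included miR-142-3p, at -2.67 in mTECs and -2.65 in cTECs, and miR-150, which restrains Myb in lymphocytes, at -2.50 and -2.33. Members of the miR-17-92 cluster, which promotes lymphocyte survival and proliferation, were lower too, such as miR-92a at -2.12 and -1.89 and miR-20a at -1.83 and -2.99. The 2 that were not called in mTECs were miR-155, at -0.80 (limma adjusted p = 0.0598), and miR-146a, at 0.014 (limma adjusted p = 1). Between mTECs and cTECs 5 of the list were called higher in mTECs, where 16.2% of the tested miRNAs were. Of the list 0 were called lower, where 20 of the 309 tested miRNAs were, and the median of the list was 0.28. The members had no call and a median of -0.15, in which miR-181c and miR-181d stand at 0 because both subsets were at the floor, and all 4 members lay above 0 without scaling. The difference between the list and the members was not tested.

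Ratios within an array showed unequal change of the members. The log2 difference of miR-181a over miR-181c was 4.08, 4.03 and 4.12 on the CD45+ arrays but 3.12 and 2.48 on the 2 mTEC arrays where both probes were well above background. Over miR-181d it was 4.03, 4.03 and 4.08 in CD45+ cells and 3.16 and 2.41 in mTECs, so that the dimmer probes lost less of their signal. miR-181b over miR-181c showed the same, at 1.81, 1.79 and 1.78 in CD45+ cells against 0.69 and 0.66 in mTECs. In contrast, miR-181a over miR-181b was 2.27, 2.24 and 2.33 in CD45+ cells, 2.42 and 1.82 in mTECs and 2.01 on the 1 cTEC array with both measured, which overlapped. miR-181c over miR-181d also overlapped, at -0.048, 0.0056 and -0.036 in CD45+ cells and 0.046 and -0.076 in mTECs. The groups thus separated for every pair of a brighter with a dimmer probe, on the arrays that measured both, and overlapped within the brighter and within the dimmer pair. No test was made, because 3 of the 4 members were below the floor on the mTEC arrays, and a fixed background under a dim probe was not tested as a part of these differences.

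**Figure D4:**
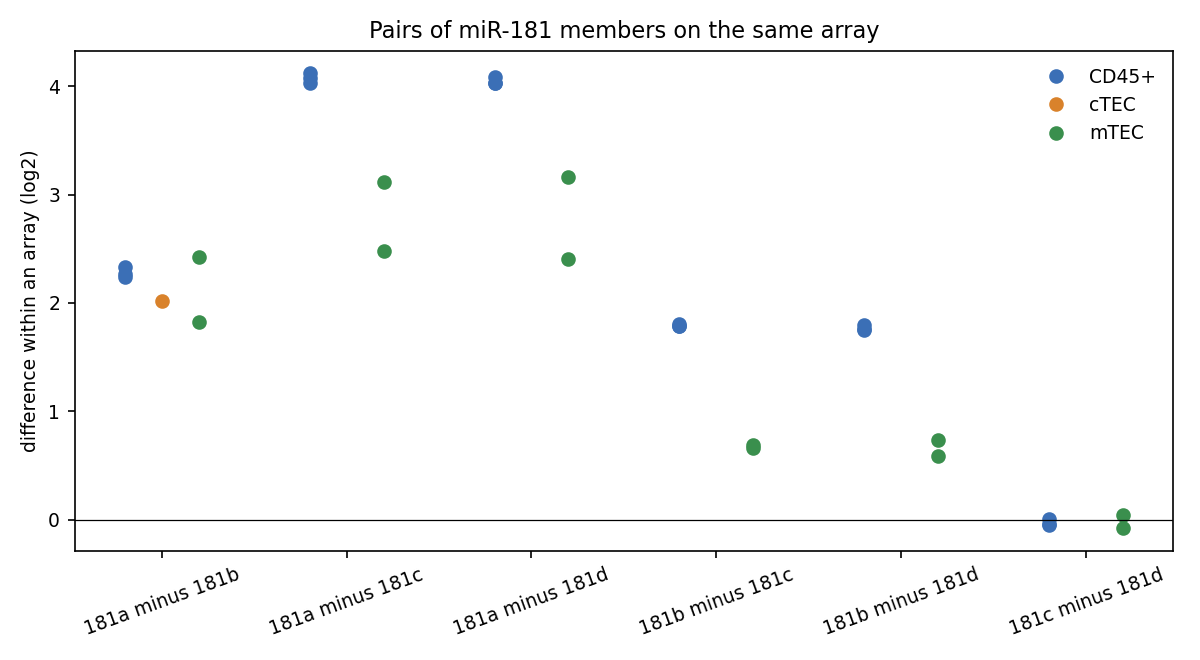
Log2 difference of pairs of members within an array, one point for each array with both probes well above background. The CD45+ points of each pair lie within 0.1 of each other, and the mTEC points lie below them for the pairs of miR-181a or miR-181b with miR-181c or miR-181d.

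The arrays also held probes for 6 passenger strands of the family, the opposite arms of the hairpins, which are usually degraded. miR-181a-1*, cut from the 3′ arm of the Mir181a-1 hairpin, was the only one well above background on any array.
miR-181a-1*: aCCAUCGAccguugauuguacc
Its seed differs from that of the members. Its scaled signal was 249, 308 and 196 in CD45+ cells, 31.9 and 88.4 in cTECs and 14.5, -27.1 and 36.6 in mTECs, where a negative value is a signal under the local background. It was well above background on all 3 CD45+ arrays and on 0 of the 3 mTEC arrays, and it was at least 2.18-fold lower in mTECs. The limits of the cTEC arrays, 342 and 621, were above its CD45+ values, so that its signal there cannot be compared. It lay below the floor of 621 on all 8 arrays, so the fit gives no difference for it. The other 5 passenger strands were well above background on 0 of 8 arrays.

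The profiles most like those of the members over the 8 arrays were found by the Euclidean distance of centered log2 signals among 225 miRNAs that were not at the floor throughout. For miR-181a the nearest were miR-15b at a distance of 1.98, miR-142-3p at 2.02, miR-150 at 2.20, miR-181b at 2.21 and miR-20b at 2.31, where the median of all others was 4.91. For miR-181b they were miR-128 at 0.519, miR-25 at 0.772, miR-92a at 0.776, miR-19a at 0.791 and miR-106a at 0.792, with a median of 2.83. Pearson's r with miR-181a was 0.979 for miR-181b and 0.941 for miR-15b, as a description over 8 arrays that share their scaling and floor. Among these 5 miRNAs miR-181b had the highest r with miR-181a, and 3 of them lay nearer by distance.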

How the data were processed

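Total RNA of 8 sorted samples was hybridized to 1-color arrays on 1 slide. The deposited scanner files hold background-subtracted intensities made by the authors with Feature Extraction 10.7.3.1 per the file headers. The deposited series table adds the authors' normalized log2 values (used as an alternative) and, not used, their own fold changes, p-values and log odds for each comparison.

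Mouse probes were identified by the deposited probe name, with 5 spots per probe, and outlier spots were left out. Spot signals were scaled to each array's 75th percentile over the 65 probes well above background on all arrays, floored at 621, log2 transformed and then averaged per probe. Scaled signals given per array are averages without the floor. The floor is the highest of the arrays' lowest scaled signals well above background and was set by cTEC replicate 2. A miRNA was tested if well above background on at least 2 arrays (309 of 1040). The 83 at the floor throughout entered the adjustment at the highest possible p. Group means were compared with limma 3.58.1 in R 4.3.3 (lmFit and eBayes, 5 residual and 0.898 prior degrees of freedom), with Benjamini-Hochberg adjustment over all tested miRNAs and a threshold of 0.05. The number of arrays limits the precision. The script was tested on simulated data.

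The members, the marker lists and the list of 11 lymphocyte miRNAs were chosen with earlier results of these data known. Reported besides the members were their passenger strands, both lists and, for miR-181a and miR-181b, the 5 nearest profiles. Alternatives were the scaling, floor, background correction, filter, the deposited values, slide row and replicate blocks, and leaving out each array. Sequences and positions are RefSeq's (GRCm38.p6).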

Additional observations from a re-analysis of the deposited data

How the results depend on the processing

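All 4 members stayed lower and called by limma against CD45+ cells, in mTECs and in cTECs, under every alternative that tested them. Between mTECs and cTECs miR-181a lay above 0 in 3 alternatives, 0.17 and 0.90 under other scalings and 0.14 without cTEC replicate 1, and miR-181b in 1, 0.041 without scaling, none of them called. For miR-181a the mTEC values ran from -4.51 to -2.40 and the cTEC values from -5.13 to -1.88. The deposited normalized values gave the smallest mTEC difference, -2.40 for miR-181a and -0.91 for miR-181b. Requiring signal above background on all 8 arrays left miR-181a alone, so the count of members called fell to 1 against CD45+ cells in each TEC subset. A floor at the median (129) or lowest (67.0) limit gave miR-181b -1.505 between mTECs and cTECs (limma adjusted p = 0.00218 and 0.00362), 1 member called in each. A floor at 223, chosen after seeing the data, gave -3.39, -1.82 and -1.84 for miR-181b, miR-181c and miR-181d in mTECs. Leaving out each array gave -3.80 to -3.54 for miR-181a in mTECs and -3.81 to -1.88 in cTECs. Between mTECs and cTECs it gave -1.79 to 0.14 for miR-181a, -0.52 to -0.067 for miR-181b and 0 to 2 members called.

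The sources used here do not say whether equal replicate numbers mark a shared pool. Deviations of same-numbered samples correlated at -0.231 to 0.276, over 0.1 in 3 of 7 pairs. Samples with different numbers gave -0.35 to 0.291, over 0.1 in 5 of 14 pairs. These few correlations cannot decide on pairing, since they are not independent: the deviations of the 2 cTEC arrays mirror each other. With the replicate number as a block miR-181a was at -3.67 (limma adjusted p = 0.00652) in mTECs and -2.84 (0.0219) in cTECs against CD45+ cells, no member's call changed, and the calls over all miRNAs went from 74, 95 and 70 to 69, 86 and 60.

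The number of tested miRNAs called, the background for the members' counts, moved more. Against 74 (mTEC against CD45+), 95 (cTEC against CD45+) and 70 (mTEC against cTEC) it was 129, 170 and 120 with normexp, 115, 200 and 130 with the median floor, and 140, 224 and 129 with the lowest floor, each of 309. The all-array filter tested only 65 miRNAs and called 31, 53 and 38 of them, a larger share in each comparison. The deposited values gave 121 in mTECs against CD45+ cells, and leaving out cTEC replicate 1 gave 170 and 147 in the comparisons with cTECs. Scaling to the percentile over all mouse probes turned the higher and lower calls from 28 and 46 to 18 and 92, from 33 and 62 to 6 and 114, and from 50 and 20 to 38 and 1. Without scaling they were 26 and 66, 2 and 111, and 73 and 0, and the median of all tested miRNAs moved by -0.43 (cTEC against CD45+) and 0.41 (mTEC against cTEC). With the median floor it moved by 0.22, 0.65 and -0.31 in the 3 comparisons. Background signal limits the low values: 8 of 20 TEC values of the members were not well above it.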
